A study of Mus musculus with 9 samples.

Results

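The genes of the calcineurin and NFAT pathway measured here were 10 of the 55401 genes in the count table. They were taken from the table by symbol, a choice made with earlier results of these data known, and are Rcan1 and Rcan2, the calcineurin subunits Ppp3ca, Ppp3cb and Ppp3r1, the transcription factors Nfatc1, Nfatc2, Nfatc3 and Nfatc4, and the kinase gene Camk2d. All 10 had enough counts to be tested. Rcan1, Rcan2 and Ppp3r1 were higher in the hearts titled WA than in those titled WC, by log2 differences of 1.81, 1.45 and 0.83 in a fit of those 6 libraries, where 13.3% of all genes tested passed the same threshold, an adjusted p under 0.05. With the other 3 libraries added to the fit none of the 10 genes passed it, and none passed between the AngII and Ctrl labels. In both of these comparisons 0% of all genes tested passed.

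The 9 libraries of poly(A) RNA came from hearts of the inbred mouse strain C57BL/6, in 3 labelled groups of 3. Mice of the Ctrl group received PBS, a salt buffer, and mice of the AngII and Kmo_AngII groups received Ang II, the blood pressure hormone angiotensin II. The labels do not say what Kmo is, nor give the age of the mice or the dose and duration of Ang II. Nor do they state that each library is a different animal, so the p-values measure the spread between libraries, which may be technical. The sample titles begin with the letters WC, WA or KKA, also unexplained, and these cross the treatment labels. The labels number no replicates, and the replicate numbers used here follow sample order and only name a library. The WC titles are those of AngII replicate 1, AngII replicate 2 and Ctrl replicate 1. The WA titles are those of AngII replicate 3, Ctrl replicate 2 and Ctrl replicate 3. The KKA titles are those of the 3 Kmo_AngII libraries, so Kmo_AngII and KKA are the same libraries. Each gene is therefore given by treatment label and by title letters, and no library was moved on account of its values. The series title speaks of the deubiquitinase JOSD2, calcium handling and hypertrophy of the heart, and no label gives a JOSD2 genotype.

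Calcineurin is a phosphatase that is switched on by calcium and calmodulin. It consists of a catalytic subunit, encoded in the heart mainly by Ppp3ca and Ppp3cb, and a calcium-binding regulatory subunit, encoded by Ppp3r1. It removes phosphates from NFAT transcription factors, which then enter the nucleus and act with partners such as GATA4 and MEF2 in the growth of heart muscle cells. Rcan1 and Rcan2 encode proteins that bind calcineurin and can inhibit it. Rcan1 is itself a known NFAT target, through an internal promoter, and its transcript is widely read as a reporter of calcineurin activity. Camk2d encodes the main calcium/calmodulin-dependent kinase II of the heart, a parallel route from calcium to gene expression. Calcineurin and NFAT are controlled largely by calcium, phosphorylation and location in the cell, none of which a transcript count measures.

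Upstream sequences are shown for Rcan1 and Rcan2, the genes with the largest differences below, and for Ppp3cb, whose level was flat. They come from RefSeq on GRCm38.p6 and cover the 250 bases before an annotated transcript start, written 5′ to 3′ on the strand of the gene. The 5 bases GGAAA, the core that NFAT proteins bind, are in capitals, as TTTCC where the match lies on the other strand. Both strands were searched, and matches of this motif cannot overlap one another on 1 strand. The first Rcan1 stretch is chr16:92466170-92466419 (minus strand), before the upstream start. The second is chr16:92400079-92400328 (minus strand), before the internal start, which lies 66091 bases downstream of the first. The Rcan2 stretch is chr17:43801102-43801351 (plus strand), and the Ppp3cb stretch is chr14:20546574-20546823 (minus strand).
Rcan1 upstream start: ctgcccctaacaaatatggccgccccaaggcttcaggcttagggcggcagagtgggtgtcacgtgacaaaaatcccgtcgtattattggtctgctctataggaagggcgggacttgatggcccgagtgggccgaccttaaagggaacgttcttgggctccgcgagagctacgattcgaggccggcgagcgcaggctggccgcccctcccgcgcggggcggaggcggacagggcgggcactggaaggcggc
Rcan1 internal start: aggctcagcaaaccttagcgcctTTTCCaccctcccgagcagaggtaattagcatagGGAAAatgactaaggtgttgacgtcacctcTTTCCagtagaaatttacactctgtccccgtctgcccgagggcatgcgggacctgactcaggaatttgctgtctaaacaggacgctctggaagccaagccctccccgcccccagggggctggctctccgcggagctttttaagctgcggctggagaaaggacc
Rcan2 start: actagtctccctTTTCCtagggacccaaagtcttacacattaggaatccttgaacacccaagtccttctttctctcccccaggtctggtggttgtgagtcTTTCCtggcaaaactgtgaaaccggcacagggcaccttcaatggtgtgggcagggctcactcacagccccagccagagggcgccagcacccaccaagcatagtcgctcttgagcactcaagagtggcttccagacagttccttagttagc
Ppp3cb start: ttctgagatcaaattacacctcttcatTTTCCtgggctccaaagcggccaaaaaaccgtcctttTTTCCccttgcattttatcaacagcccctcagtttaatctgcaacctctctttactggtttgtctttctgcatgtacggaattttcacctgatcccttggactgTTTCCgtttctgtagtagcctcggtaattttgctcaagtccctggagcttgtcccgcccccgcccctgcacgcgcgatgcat

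The stretch before the internal Rcan1 start held 3 matches, beginning 227, 193 and 163 bases before it, and the stretch before the upstream start held 0. The Rcan2 stretch shown held 2 matches, 238 and 150 bases before the start, and those before the other 2 Rcan2 starts held 0. The Ppp3cb stretch held 3 matches, at 223, 186 and 82 bases. Of the 32841 RefSeq promoters of mouse genes cut to the same 250 bases, 55.6% held at least 1 match, 21.4% at least 2 and 6.4% at least 3. RefSeq promoters were matched for 8 of the 10 genes, with 13 starts in all. The Ppp3r1 stretch held 0 matches, that of Camk2d 1 and that of Nfatc4 3. The starts of Nfatc2 had 3 matches and 1, and those of Nfatc3 had 1 and 0. Nfatc1 and Ppp3ca have no entry in that table. A match is a description of letters and not a measured binding site. The counts are per gene and do not separate the transcripts of the Rcan1 starts.

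Library totals lay between 56827533 and 73194268 counts, and 30.3% to 55.5% of it came from mitochondrially encoded genes. The 10 genes had from 229 counts (Nfatc4) to 16635 counts (Rcan2) in a library. Counting error was small beside the differences of Rcan1, Rcan2 and Ppp3r1 between libraries, and less so for genes as steady as Ppp3ca. Levels are in CPM, with each count divided by its library's size after TMM scaling, which corrects for a few genes taking a large share of the counts. All 6 listed markers of heart muscle cells (Myh6, Tnnt2, Actc1, Ryr2, Tnni3 and Myl2) were detected in every library. Their summed level was 20200 to 26300 CPM in WC, 31000 to 39100 CPM in WA and 15100 to 37400 CPM in KKA. The 3 atrial markers Myl7, Sln and Myl4 summed to 148 CPM in Ctrl replicate 2 and 1140 CPM in Kmo_AngII replicate 3, against 1.98 to 3.51 CPM in the other libraries. The results are therefore also given without those 2 libraries, an alternative chosen after the data were seen. Acta1, a skeletal actin gene that rises in stressed heart muscle, was at 11.3 to 17.4 CPM in WC and 617 to 686 CPM in WA. It was at 633 CPM in Kmo_AngII replicate 1 and at 39.6 and 13 CPM in Kmo_AngII replicates 2 and 3. The other hypertrophy genes listed, Nppa, Nppb and Myh7, were also higher in WA than in WC without overlap. Nppa was at 48 to 114 CPM in WC, 603 to 1220 in WA and 121 to 1190 in KKA, where its mean was 803. Nppb was at 20.6 to 53.3, 286 to 474 and 23.1 to 533 CPM in the same order. Myh7 was at 591 to 870, 984 to 1570 and 733 to 1290 CPM.

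Rcan1 (ENSMUSG00000022951), the calcineurin regulator, had 14.7, 18.3 and 12.3 CPM in the WC libraries, which are Ctrl replicate 1 and then AngII replicates 1 and 2. It had 59.1, 53.8 and 45.1 CPM in the WA libraries, which are Ctrl replicates 2 and 3 and then AngII replicate 3. Every WA library was above every WC library, whatever its treatment label. In the KKA libraries Rcan1 was at 65.2, 15.3 and 15 CPM, so that Kmo_AngII replicate 1 had the highest level of all 9 and the other 2 lay within the WC range. The highest level was 5.3 times the lowest, a range wider than that of 74.4% of the genes tested.

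Between WA and WC, mean Rcan1 was 52.66 ± 7.06 against 15.11 ± 3.02 CPM (SD, n = 3 each). With only these 6 libraries in the fit, the log2 difference was 1.81 ± 0.19 (SE), with an adjusted p of 0.00134 in edgeR's quasi-likelihood test, and Rcan1 ranked 11 of 18111 genes by p. With all 9 libraries in the fit the log2 difference was 1.80 ± 0.50 and the edgeR adjusted p 0.224. The spread of the KKA libraries enters the second fit, whose common dispersion was 0.156 against 0.088 in the first. The 6-library difference held under all 14 alternatives, with log2 values of 1.43 to 1.99 and a highest adjusted p of 0.0478. With the treatment label as a covariate it was 1.76, with an edgeR adjusted p of 0.00258. The summed heart muscle markers were also higher in WA than in WC without overlap. Of that list, Tnnt2, Actc1 and Myl2 were so singly. Their means were 6990, 3660 and 6210 CPM in WA and 4690, 744 and 3770 CPM in WC. Myh6 and Tnni3 had higher means in WA but overlapped, and Ryr2 was level (426 against 428 CPM). Summed markers of 3 other cell types were lower in WA without overlap. Endothelial markers were at 583 to 619 CPM in WA against 623 to 729 CPM in WC. Macrophage and monocyte markers were at 49.1 to 57.5 against 61.6 to 68.5 CPM, and epicardial markers at 7.79 to 9.9 against 15.5 to 18.1 CPM. Singly, only Pecam1 (endothelial), Csf1r (macrophage and monocyte) and Wt1 (epicardial) were lower without overlap. Their means were 175, 21.3 and 5.99 CPM in WA and 201, 31.8 and 12.9 CPM in WC. The other endothelial markers, C1qa, Cd14 and Krt19 had lower means in WA but overlapped. Cd68 was level, and Adgre1, Upk3b and Msln had higher means in WA. The part of these lists in the Rcan1, Rcan2 and Ppp3r1 results was not tested. In whole tissue, fewer cells of a type and less RNA per cell cannot be told apart.

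Rcan2 (ENSMUSG00000039601), the second calcineurin regulator, followed the same division at a higher level. It had 72.3, 75.7 and 56.9 CPM in the WC libraries, in the order used for Rcan1, and 181, 241 and 132 CPM in the WA libraries. The KKA libraries had 199, 76.4 and 50.9 CPM, with Kmo_AngII replicate 1 again at the level of WA. WA and WC did not overlap, with means of 184.6 ± 54.4 and 68.28 ± 10 CPM (SD, n = 3 each). The log2 difference was 1.45 ± 0.24 in the 6-library fit (edgeR adjusted p = 0.00488) and 1.43 ± 0.45 in the 9-library fit (edgeR adjusted p = 0.224). The 6-library call held in 13 of 14 alternatives and was lost with library size as the only scaling, at 1.07 with an edgeR adjusted p of 0.159.

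**Figure D1:**
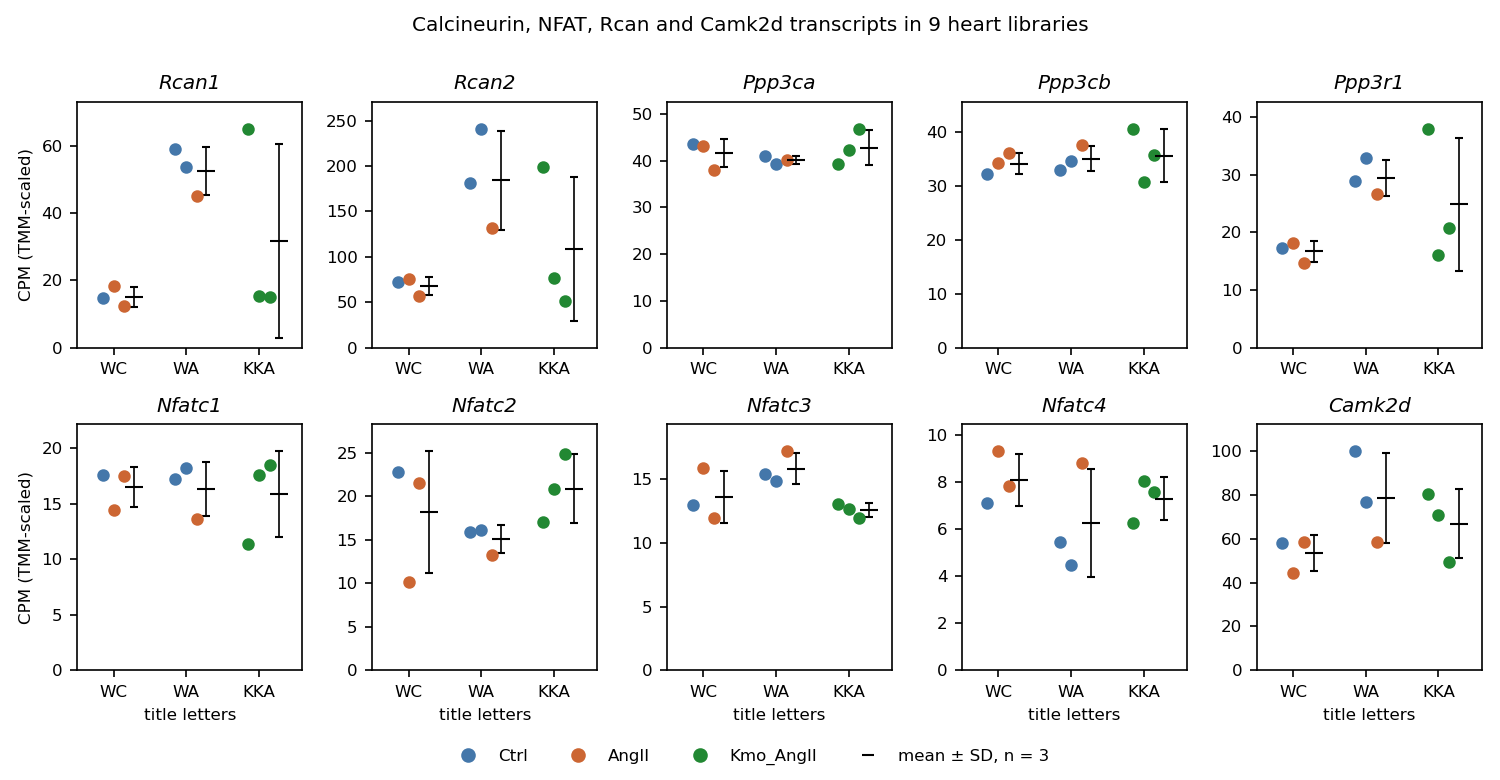
Level of each of the 10 genes (y axis, TMM-scaled CPM from 0) by title letters (x axis), with 1 point per library coloured by treatment label and the mean with SD (n = 3) beside it. Rcan1, Rcan2 and Ppp3r1 lie apart in WA and WC and split 1 to 2 in KKA, while Ppp3ca stays between 38.1 and 46.8 CPM.

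Ppp3ca and Ppp3cb, which encode catalytic subunits of calcineurin, were among the steadiest genes in these hearts after TMM scaling. Ppp3ca (ENSMUSG00000028161), the alpha catalytic subunit, had a lowest level of 38.1, a median of 41 and a highest level of 46.8 CPM over the 9 libraries. Its highest level was 1.23 times its lowest, a narrower range than that of all but 0.3% of the genes tested, for which the median was 2.73 times. Ppp3cb (ENSMUSG00000021816), the beta catalytic subunit, ranged from 30.7 to 40.6 CPM with a median of 34.6, or 1.32 times, where 1.4% of the genes were narrower. The genes tested include ones of low count, whose ranges counting error widens. The TMM factors ran from 0.681 to 1.36. With library size alone, AngII minus Ctrl was 0.63 for Ppp3ca and 0.77 for Ppp3cb (log2), where the median of all genes was 0.67. Neither gene divided WA from WC. In the 6-library fit the WA minus WC log2 difference was -0.04 for Ppp3ca, with a 95% interval of -0.37 to 0.29 (edgeR adjusted p = 0.893). For Ppp3cb it was 0.05, with an interval of -0.28 to 0.38 (edgeR adjusted p = 0.861).

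Ppp3r1 (ENSMUSG00000033953), the calcium-binding regulatory subunit, did not share this steadiness. It had 17.3, 18.2 and 14.7 CPM in the WC libraries and 28.9, 32.9 and 26.7 CPM in the WA libraries. WA was again above WC in every library, as for Rcan1 and Rcan2. In KKA it had 38 CPM in Kmo_AngII replicate 1, the highest of all 9, and 16 and 20.8 CPM in the other 2. The WA and WC means were 29.53 ± 3.14 and 16.7 ± 1.83 CPM (SD, n = 3 each). The log2 difference was 0.83 ± 0.17 in the 6-library fit (edgeR adjusted p = 0.0104) and 0.82 ± 0.29 in the 9-library fit (edgeR adjusted p = 0.226). The 6-library call was lost without Ctrl replicate 3 (log2 0.76, edgeR adjusted p = 0.0577), without AngII replicate 2 (0.75, adjusted p = 0.0644) and with library size alone (0.49, adjusted p = 0.561).

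Ratios of raw counts within a library do not depend on how libraries are scaled, and they showed the same division. The ratio of Rcan1 to Ppp3ca was 0.338, 0.424 and 0.323 in the WC libraries and 1.44, 1.37 and 1.13 in the WA libraries. It was 1.66 in Kmo_AngII replicate 1, and 0.363 and 0.32 in the other 2 KKA libraries. The ratio was thus higher in every WA library than in every WC library. The ratio of the regulatory to the catalytic subunit, Ppp3r1 to Ppp3ca, was 0.384 to 0.421 in WC and 0.667 to 0.837 in WA, and 0.966, 0.38 and 0.445 in KKA. The ratio of the catalytic subunits, Ppp3ca to Ppp3cb, was between 0.97 and 1.38 in all 9 libraries, with WC (1.06 to 1.35) and WA (1.07 to 1.24) overlapping. Rcan1 to Rcan2 was 0.204 to 0.242 in WC and 0.224 to 0.342 in WA, also overlapping. These are ratios of counts and not of levels per length, so they compare libraries and not genes, and they do not say which gene changed.

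**Figure D2:**
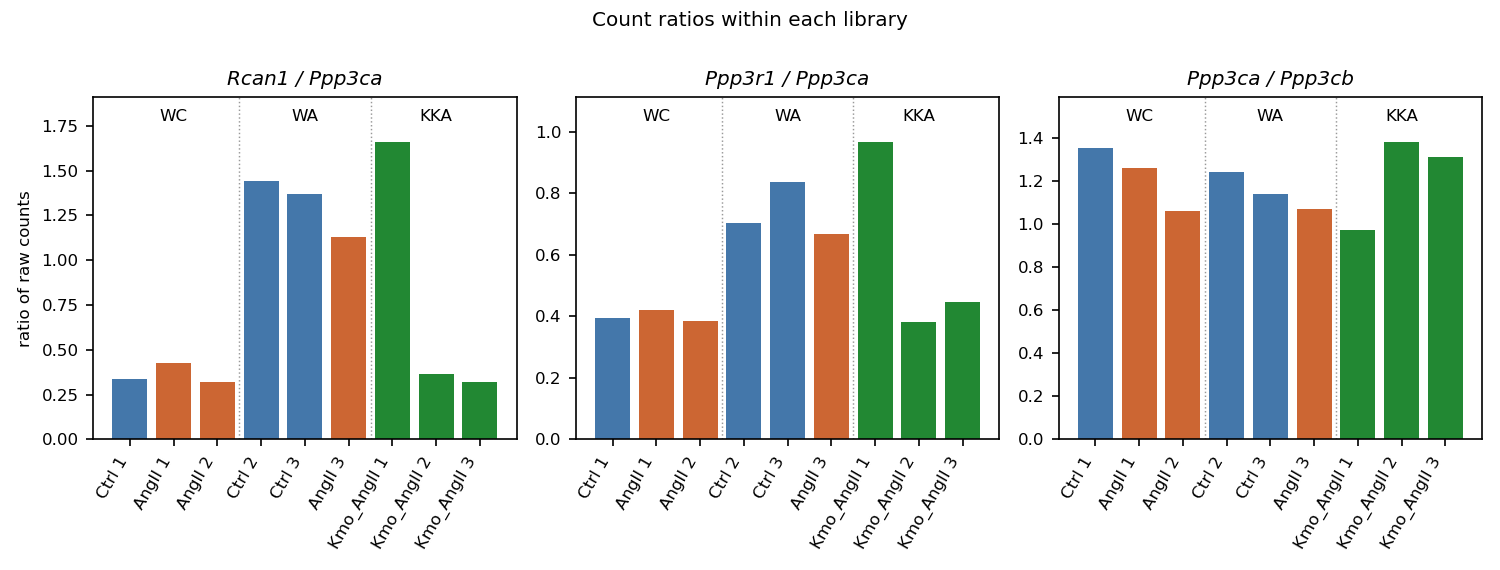
Ratio of raw counts within each library (y axis, from 0) for Rcan1 to Ppp3ca, Ppp3r1 to Ppp3ca and Ppp3ca to Ppp3cb, with 1 bar per library, ordered by title letters and coloured by treatment label (blue Ctrl, orange AngII, green Kmo_AngII). The first ratio is at most 0.424 in WC and at least 1.13 in WA, and the third lies between 0.97 and 1.38 throughout.

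Of the NFAT transcription factors, none divided WA from WC. Nfatc1 (ENSMUSG00000033016), known for its role in heart valve formation, ranged from 11.4 to 18.5 CPM with a median of 17.5. Its lowest level was that of Kmo_AngII replicate 1, the library with the highest Rcan1. Nfatc3 (ENSMUSG00000031902), an NFAT linked to growth of heart muscle, ranged from 12 to 17.2 CPM with a median of 13.1. Nfatc2 (ENSMUSG00000027544), well known from T cells, ranged from 10.1 to 24.9 CPM with a median of 17, and its WC values of 22.8, 10.1 and 21.6 CPM spanned most of that range. Nfatc4 (ENSMUSG00000023411), also linked to growth of heart muscle, was the lowest of the 10 in CPM, at 4.46 to 9.3 with a median of 7.58. In the 6-library fit the WA minus WC log2 differences were -0.01 for Nfatc1 (95% interval -0.39 to 0.38), -0.26 for Nfatc2 (-0.84 to 0.33), 0.23 for Nfatc3 (-0.16 to 0.61) and -0.35 for Nfatc4 (-0.93 to 0.22). Their edgeR adjusted p-values lay between 0.402 and 0.984, and these intervals do not show the levels to be equal.

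Camk2d (ENSMUSG00000053819), the kinase gene, had 58.2, 44.2 and 58.7 CPM in the WC libraries and 100, 76.9 and 58.8 CPM in the WA libraries. These groups did not overlap, but AngII replicate 2 of WC and AngII replicate 3 of WA were all but equal. KKA had 80.5, 71.1 and 49.4 CPM. The WA minus WC log2 difference was 0.56 ± 0.22 in the 6-library fit (edgeR adjusted p = 0.106) and 0.55 ± 0.27 in the 9-library fit (edgeR adjusted p = 0.299). It passed the threshold in 1 of 14 alternatives of the 6-library fit, without AngII replicate 3 (log2 0.75, edgeR adjusted p = 0.0325).

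Counted over the 10 genes, 3 passed an adjusted p of 0.05 in the 6-library WA minus WC fit, all of them higher in WA, where 13.3% of the genes tested passed and 8.06% were higher. At an unadjusted p under 0.05 the count was 4 of 10, against 29.7% of all genes. The median log2 difference of the 10 was 0.14, against -0.01 over all genes. In the 9-library fit, edgeR called 0 of the 10 and 0% of all genes, and 3 of 10 had an unadjusted p under 0.05 against 18% of all genes. DESeq2 called Rcan1 and Rcan2 in the same 9 libraries, among 505 genes, and limma-voom called 0. WA lay wholly above WC for 4 of the 10 genes, against 16.5% of all genes. Many genes divided WA from WC, and whether the 10 genes differed from the rest as a group was not tested.

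**Figure D3:**
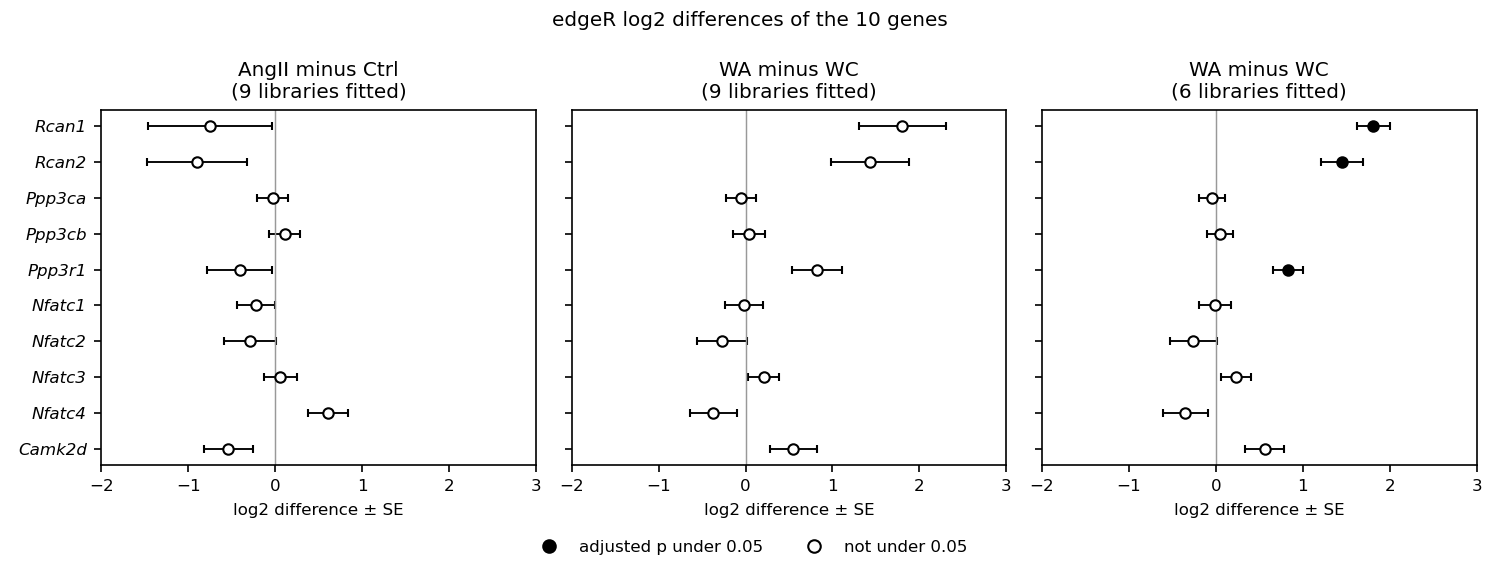
Log2 differences with SE (x axis) of the 10 genes (y axis) for AngII minus Ctrl and for WA minus WC with 9 and with 6 libraries fitted, filled where the edgeR adjusted p is under 0.05. The 3 filled points are Rcan1, Rcan2 and Ppp3r1 at 1.81, 1.45 and 0.83.

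The treatment labels address the effect of Ang II, a hormone known to act on heart muscle partly through calcium and calcineurin. Rcan1 averaged 25.25 ± 17.5 CPM in AngII and 42.53 ± 24.2 CPM in Ctrl (SD, n = 3 each), a log2 difference of -0.75 ± 0.71 with a 95% interval of -2.33 to 0.83 (edgeR adjusted p = 0.917). Rcan2 averaged 88.15 ± 39 against 164.7 ± 85.3 CPM, a log2 difference of -0.90 ± 0.58 with an interval of -2.18 to 0.38 (edgeR adjusted p = 0.89). In both genes the labels overlapped, since each label holds libraries of both title letters. Ctrl holds 1 WC and 2 WA libraries, and AngII holds 2 WC and 1 WA. Within WC, Rcan1 was at 14.7 CPM in the Ctrl library and at 18.3 and 12.3 CPM in the AngII libraries. Within WA it was at 59.1 and 53.8 CPM in the Ctrl libraries and at 45.1 CPM in the AngII library. With the title letters as a covariate the AngII minus Ctrl log2 difference was -0.13 for Rcan1 and -0.40 for Rcan2.

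Nfatc4 was the 1 gene of the 10 with an unadjusted p under 0.05 in this comparison, against 5.25% of all genes tested. It had 7.12, 5.46 and 4.46 CPM in the Ctrl libraries and 9.3, 7.82 and 8.83 CPM in the AngII libraries, so the labels did not overlap, as for 12.2% of all genes. The log2 difference was 0.61 ± 0.23 with a 95% interval of 0.09 to 1.12 (edgeR adjusted p = 0.89). With the title letters as a covariate it was 0.55. The mitochondrial share of counts was 43.4% to 52.6% in Ctrl and 30.3% to 39.5% in AngII, and the 5 summed fibroblast markers were at 579 to 650 and 401 to 480 CPM. Both also separated the labels. Of the fibroblast list, Dcn (432 to 452 CPM in Ctrl, 290 to 365 in AngII) and Col1a1 (47.1 to 80.1 and 22.2 to 41) did so singly. Col3a1, Pdgfra and Tcf21 overlapped. The part of the mitochondrial share and of the fibroblast markers in the Nfatc4 values was not tested. Camk2d was at 78.38 ± 21 CPM in Ctrl and 53.9 ± 8.38 CPM in AngII (SD, n = 3 each), a log2 difference of -0.54 ± 0.28 (edgeR adjusted p = 0.89). Ppp3ca and Ppp3cb differed by -0.03 ± 0.18 and 0.11 ± 0.18 on the log2 scale, with 95% intervals of -0.43 to 0.37 and -0.29 to 0.52.

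No gene of the 10 passed the adjusted threshold for AngII minus Ctrl in edgeR, DESeq2 or limma-voom, and each tool gave 1 of 10 at an unadjusted p under 0.05. Of all genes tested, edgeR and limma-voom called 0 and DESeq2 called 2. The median log2 difference of the 10 was -0.25, with 3 above 0, and that of all genes was 0.02, with 52% above 0. Scaling moved this comparison more than any other here. With library size alone the median over all genes rose to 0.67, and that of the 9-library WA minus WC comparison fell from -0.03 to -0.33. Relative to that median, the library-size values were -0.71 for Rcan1, -0.89 for Rcan2, 0.59 for Nfatc4 and -0.53 for Camk2d, close to those above.

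In Rcan1, Rcan2 and Ppp3r1, Kmo_AngII replicate 1 stood well above the other 2 libraries of its group. Rcan1 averaged 31.83 ± 28.9 CPM there (SD, n = 3). Its log2 difference was 0.34 ± 0.71 from AngII (edgeR adjusted p = 0.9998) and -0.42 ± 0.71 from Ctrl (edgeR adjusted p = 0.998). Rcan2 and Ppp3r1 differed from AngII by 0.30 ± 0.57 and 0.33 ± 0.37 on the log2 scale. Without Kmo_AngII replicate 1 these 3 differences from AngII became -0.74, -0.47 and -0.11, so their direction rested on that library. None of the 10 genes passed the adjusted threshold in either comparison with edgeR, DESeq2 or limma-voom. Of all genes, edgeR and limma-voom called 0 in both, and DESeq2 called 3 against AngII and 9 against Ctrl. At an unadjusted edgeR p under 0.05 there were 0 of 10. The share of all genes was 2.16% for the comparison with AngII and 2.79% for that with Ctrl. These comparisons share the Ctrl or AngII libraries with the ones above.

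Set against the title groups, the same 3 libraries gave Rcan1 log2 differences of -0.72 ± 0.48 from WA (edgeR adjusted p = 0.744) and 1.08 ± 0.49 from WC (edgeR adjusted p = 0.995). The second had an unadjusted edgeR p of 0.0496, 1 of 10 genes, against 3.51% of all genes. Kmo_AngII replicate 1 had the highest Rcan1 and Rcan2 of the 3 KKA libraries, so leaving it out had to lower both in KKA. The p-values without it are therefore no separate support. Without Kmo_AngII replicate 2 or replicate 3, edgeR called 0 of the 10 genes for KKA minus WA. Without Kmo_AngII replicate 1, Rcan1 was lower than in WA by a log2 difference of -1.80 (edgeR adjusted p = 0.00734) and Rcan2 by -1.54 (edgeR adjusted p = 0.0168), while the Rcan1 difference from WC was 0.00. In that fit of 8 libraries 1709 genes were called for KKA minus WA. With all 9, edgeR called 0 of the 10 genes and 0% of all genes for KKA minus WA, with 0 of 10 at an unadjusted p under 0.05 against 7.05% of all genes. DESeq2 and limma-voom also called 0 of the 10, among 91 and 0 of all genes. For KKA minus WC edgeR, DESeq2 and limma-voom called 0 of the 10, among 0, 27 and 0 of all genes. Nfatc2 and Nfatc3 were the 2 genes with no overlap between KKA and WA, against 8.18% of all genes. Nfatc2 had 17, 20.8 and 24.9 CPM in KKA and 15.9, 16.1 and 13.2 CPM in WA, a log2 difference of 0.47 ± 0.29 (edgeR adjusted p = 0.742). The 6 summed T and NK cell markers were at 4.97 to 7 CPM in KKA and 1.03 to 2.31 CPM in WA, and their part in the Nfatc2 values was not tested. Nfatc3 had 13.1, 12.7 and 12 CPM in KKA and 15.4, 14.9 and 17.2 CPM in WA, a log2 difference of -0.33 ± 0.18 (edgeR adjusted p = 0.719). The 4 summed smooth muscle and pericyte markers were at 503 to 594 CPM in KKA and 629 to 784 in WA, also without overlap. That sum was mostly Rgs5, with means of 370 CPM in KKA and 569 CPM in WA. Myh11, Acta2 and Tagln went the other way. Their means were 59.4, 82 and 37.2 CPM in KKA and 43, 73 and 27.9 CPM in WA. The part of either marker list in the Nfatc3 values was not tested.

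Levels can be compared between genes only per length, as CPM divided by the summed length of the exons in kb (GENCODE M21). On that scale Rcan2 was the highest of the 10, with a median of 17.5 CPM per kb and a range of 11.6 to 55.1. Ppp3r1 and Rcan1 followed with medians of 6.44 and 5.93. Their ranges of 4.55 to 11.8 and 3.99 to 21.1 overlapped over the 9 libraries. In WA Rcan1 was the higher per kb, at 45.1 to 59.1 CPM over 3.08 kb against 26.7 to 32.9 CPM over 3.23 kb. Ppp3ca and Ppp3cb had medians of 4.11 and 3.93, with ranges of 3.82 to 4.69 and 3.49 to 4.61 that overlapped. Camk2d had a median of 2.61 and a range of 1.97 to 4.45, and Nfatc1 one of 2.34 and 1.53 to 2.48, again overlapping. Nfatc2, Nfatc4 and Nfatc3 were lowest, with medians of 1.61, 1.31 and 1.12 CPM per kb and overlapping ranges. Exons of all annotated transcripts were joined, so a gene with long exons that the heart does not use, such as one among the 22.49 kb of Camk2d, is understated.

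Of 46 further genes of the pathway, 44 were tested (Ppp3r2 and Camk4 had too few counts). In the 9-library WA minus WC fit edgeR called 0 of the 44 and 0% of all genes, with a lowest adjusted p of 0.224. There 12 of the 44 had an unadjusted edgeR p under 0.05, against 18% of all genes. In the 6-library WA minus WC fit 5 of the 44 passed the adjusted threshold, 3 higher and 2 lower in WA, or a share near the 13.3% of all genes. The values that follow are of this 6-library fit. Ppp3cc, the gamma catalytic subunit, was higher by a log2 difference of 1.10 ± 0.22 (17.01 ± 4.48 against 8.018 ± 1.04 CPM, SD, n = 3 each, edgeR adjusted p = 0.00986), unlike Ppp3ca and Ppp3cb. Myoz2, or calsarcin, a sarcomere protein that tethers and restrains calcineurin, was higher by 1.60 ± 0.23 (898.6 ± 171 against 298.1 ± 39.7 CPM, edgeR adjusted p = 0.00391). Calm3, 1 of the genes for calmodulin, was higher by 0.76 ± 0.19 (edgeR adjusted p = 0.0251). Cabin1, a calcineurin-binding inhibitor, was lower in WA, with a log2 difference of -0.67 ± 0.19 (edgeR adjusted p = 0.0398). Camk2g, the gamma form of the kinase of Camk2d, was also lower, at -0.64 ± 0.17 (edgeR adjusted p = 0.0327). So 2 of the 9 genes for regulators and anchors passed, 1 in each direction, and likewise 2 of the 11 for calmodulin and CaM kinases.

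None of the 9 NFAT kinase genes, the 8 genes for NFAT partners and hypertrophy factors, the 5 calcium entry genes and Nfat5 passed the adjusted threshold in that edgeR fit. At an unadjusted p under 0.05, against 29.7% of all genes, there were 3 of the 9 NFAT kinase genes, 3 of the 8 partner genes and 1 of the 5 calcium entry genes. Those with the smallest p were Mapk14 at -0.64 ± 0.21, Gata4 at 0.70 ± 0.23 and Trpc1 at -0.57 ± 0.20 (log2, WA minus WC), with edgeR adjusted p-values of 0.0665, 0.0652 and 0.0814. Mapk14 and Gata4 lay close to the threshold and were called by DESeq2 (adjusted p = 0.0249 and 0.0285), and in edgeR Mapk14 was called without Ctrl replicate 1 (0.042) and Gata4 without AngII replicate 3 (0.00725). Leaving out single libraries ended several of the 5 calls. That of Ppp3cc was lost without Ctrl replicate 3 (edgeR adjusted p = 0.0613) or AngII replicate 2 (0.067). Cabin1 was lost without any of the 3 Ctrl libraries, AngII replicate 2 or AngII replicate 3 (edgeR adjusted p of 0.0645 to 0.177). Calm3 was lost without any Ctrl library or AngII replicate 2 (0.054 to 0.121), and Camk2g without any Ctrl library, AngII replicate 1 or AngII replicate 2 (0.0508 to 0.13), while the Myoz2 call held without each library. With library size alone none of the 5 passed. For AngII minus Ctrl, 0 of the 44 passed in edgeR and 4 had an unadjusted p under 0.05, against 5.25% of all genes. These were Gsk3a at -0.77 ± 0.21, an NFAT kinase gene, Mapk14 at 0.65 ± 0.25, Gata4 at -0.74 ± 0.28 and Hdac5 at 0.57 ± 0.22, each with an edgeR adjusted p of 0.89.

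**Figure D4:**
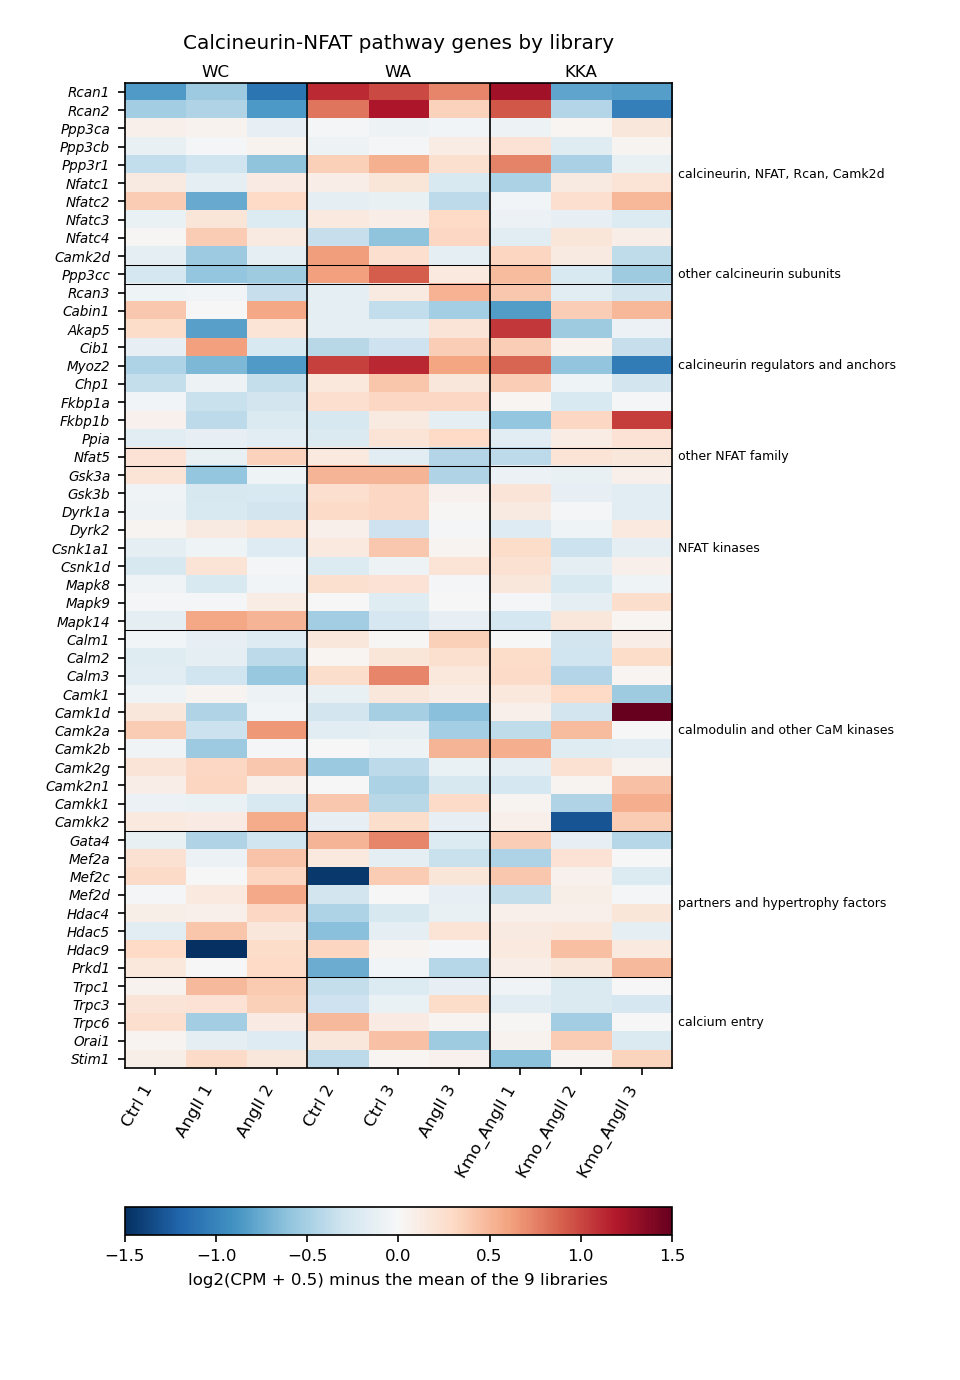
Level of the 10 genes and the 44 other tested pathway genes (y axis) in each library (x axis, by title letters), as log2(CPM + 0.5) minus the mean of the 9 libraries; values beyond 1.5 are drawn at the end of the colour scale. Rcan1, Rcan2, Ppp3r1 and Myoz2 are red in WA and in Kmo_AngII replicate 1 and blue elsewhere, except the pale Ppp3r1 of Kmo_AngII replicate 3, while Ppp3ca and Ppp3cb are pale throughout.

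Likeness to Rcan1 was measured as Pearson's r of log2 CPM over the 9 libraries, for 11183 genes with a mean log2 CPM of at least 1. The libraries fall on 2 sides in Rcan1, so r mainly states whether a gene divides them in the same way. The most alike were Spcs3 (r = 0.992), for a subunit of the signal peptidase, Tcp1 (0.991), for a chaperonin subunit, Cdv3 (0.991), Mtch2 (0.990), for an outer mitochondrial membrane protein, and Tmem9b (0.988). Cdv3, for example, had 41.9 to 61.5 CPM in WC, 103 to 113 in WA, and 115, 54.2 and 48.5 in KKA. Among the pathway genes Myoz2 had r = 0.970 (rank 74), Rcan2 0.959 (rank 152) and Ppp3r1 0.954 (rank 208). Of the hypertrophy genes, Acta1 had 0.958 (rank 161), Nppb 0.947 (rank 276), Nppa 0.755 (rank 2245) and Myh7 0.734 (rank 2414). Camk2d had r = 0.695, Nfatc3 0.574 and Ppp3cb 0.445. Ppp3ca (-0.472), Nfatc1 (-0.503), Nfatc2 (-0.446) and Nfatc4 (-0.613) ran the other way. With library size alone, r was 0.848 for Tcp1, -0.027 for Ppp3ca, -0.457 for Nfatc1, -0.524 for Nfatc2 and -0.14 for Nfatc4, so these values depend in part on the scaling.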

How the data were processed

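Mouse heart RNA was sequenced as 9 poly(A) paired-end libraries on an Illumina NovaSeq, per the labels' protocols, which also mention an adipose type although the source is heart. The authors deposited whole-number counts for 55401 genes. Bowtie 0.12.2, HISAT2 2.0, StringTie 1.3.0 and the build mm8 are named in the submitters' processing notes, without roles. The strand setting was not given in the sources used here. RefSeq sequences and GENCODE lengths are on GRCm38, another build. Symbols matched 55141 genes.

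The 10 genes, the lists and the comparisons were chosen with earlier results of these data known. Differences were tested with edgeR 4.0.16 (R 4.3.3) by the quasi-likelihood test with TMM scaling, filterByExpr and Benjamini-Hochberg adjustment over all 19091 genes tested, or 18111 for the 6 libraries titled WA or WC, a fit made because earlier results showed a wider spread with KKA. The SE was derived from the F statistic. CPM used the same TMM library sizes, and log2 CPM a prior count of 2. All 10 genes are named, with the called genes of each pathway list or up to 2 with the smallest p, and the 5 genes most like Rcan1. The fits were tested on simulated counts of lower dispersion than the common dispersion of these libraries, so that test does not give their power or error here. Alternatives were other scalings and filters, DESeq2 1.42.0, limma-voom 3.58.1, other samples, the other grouping as a covariate, and leaving out each library. No 2 libraries agreed within sampling noise (lowest chi-square per degree of freedom 62.1).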

Additional observations from a re-analysis of the deposited data

How the results depend on the processing

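No paired analysis was possible because the labels number no replicates, and the numbers used here only name the libraries. Of 1338 single-gene values under alternatives, 1247 kept their direction and side of the threshold, 28 lost a call, 26 gained one and 37 changed sign. Of the 10 genes, 3 were called in the 6-library WA minus WC fit, among 2409 of all genes. With library size alone 1 was called, among 232 of all genes. When single libraries were left out 2 to 4 were called, among 459 to 2980 of all genes. In the 9-library fit 0 of the 10 and 0 of all genes were called. DESeq2 called 2 among 505, and fitting only the compared groups called 3 among 2409. Leaving out single libraries gave 0 to 3 of the 10 and 0 to 1576 of all genes. The 3 and the 1576 came without Kmo_AngII replicate 1. For KKA minus WA 0 of the 10 and 0 of all genes were called. When single libraries were left out these became 0 to 2 and 0 to 1709. Library size alone changed the sign for AngII minus Ctrl of Ppp3ca (0.63), Ppp3r1 (0.27), Nfatc1 (0.43), Nfatc2 (0.32), Camk2d (0.14), Nfat5 (0.54), Calm3 (0.13) and Orai1 (0.11), where the median of all genes moved to 0.67. It also did so for Kmo_AngII minus Ctrl of Rcan1 (0.06) and Ppp3r1 (0.30), and for both WA minus WC fits of Ppp3cb (-0.26) and Nfatc3 (-0.09). Without the 2 libraries with atrial markers, Kmo_AngII minus Ctrl was 0.24 for Rcan1 and 0.11 for Ppp3r1, and the WA minus WC calls of Rcan1, Rcan2 and Ppp3r1 in the smaller fit held (log2 1.72, 1.46 and 0.85). Leaving out single libraries gave changes of sign within these log2 ranges: AngII minus Ctrl -0.08 to 0.01 for Ppp3ca, -0.05 to 0.20 for Nfatc3 and -0.34 to 0.06 for Nfat5; WA minus WC -0.02 to 0.08 for Ppp3cb and -0.11 to 0.10 for Nfatc1; the 6-library fit -0.08 to 0.12 for Nfatc1 and -0.09 to 0.00 for Ppp3ca. They were -0.74 to 1.06 for Rcan1, -0.47 to 0.71 for Rcan2 and -0.11 to 0.60 for Ppp3r1 in Kmo_AngII minus AngII, -0.52 to 0.16 for Ppp3r1 in Kmo_AngII minus Ctrl, and -0.10 to 1.01 for Rcan2 in KKA minus WC. The causes of these shifts were not tested, apart from the scaling itself and the smaller number of libraries. With at least 759 counts in every library, depth added little error for Rcan1, Rcan2 and Ppp3r1. The precision of all 10 genes was limited by 3 libraries a group.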

Other observations

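Some pathway genes stood apart in 1 library, and these were chosen after their values were seen. Mef2c, a partner of NFAT, had 11.4 CPM in Ctrl replicate 2 and 27.7 to 42.5 CPM in the other libraries. Hdac9, which restrains MEF2 factors, had 3.56 CPM in AngII replicate 1 and 12.3 to 17.2 CPM elsewhere. Camkk2, for a kinase that activates CaM kinases, had 3.49 CPM in Kmo_AngII replicate 2 and 8.52 to 13.9 CPM elsewhere. Camk1d had 9.95 CPM in Kmo_AngII replicate 3, 1 of the 2 libraries with atrial markers, and 1.31 to 2.64 CPM elsewhere. No test was run on these single libraries.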
